A study of Drosophila melanogaster with 2 samples.

Results

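Peaks of H2.0, a homeodomain transcription factor tagged with enhanced green fluorescent protein (eGFP), were located in 10 genes of the ecdysone response of Drosophila melanogaster. The genes were taken by name from the Ensembl annotation, out of 13968 protein-coding genes on the assembled arms. They were EcR, usp, Eip75B, Eip74EF, Eip78C, br, Hr3, Hr4, Hr39 and ftz-f1. A peak was counted for a gene when its summit lay in the gene's annotated span widened by 1 kb on each side. The study had 1 group, whole embryos of strain H2.0-GFP aged 0 to 24 h, with 2 biological replicates and no second strain, stage or treatment. Chromatin had been sheared by sonication to 200 to 800 bp and precipitated with an antibody against GFP. The tagged protein was carried as a transgenic insertion. Whole embryos of all stages of embryogenesis were mixed, so a site occupied in few cells and a site weakly occupied in many cannot be told apart. The pooled list of both replicates held 4590 peaks, 4565 of them on the arms, and 37 of these had a summit in the 10 genes. The replicates' own lists had 25 of 3047 summits there in replicate 1 and 19 of 3110 in replicate 2. A control library was not used here, so each peak is given as a site of signal, and occupancy by H2.0 was not tested.

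Ecdysone is the steroid hormone that times moulting and metamorphosis, and a pulse of it also occurs in mid-embryogenesis. Its active form, 20-hydroxyecdysone, binds the nuclear receptor EcR, which acts as a heterodimer with Usp, the fly RXR. The bound receptor switches on early genes such as br, Eip74EF and Eip75B, most of which encode transcription factors, and these together with receptors of the next tier such as Hr3 and Hr4 control ftz-f1 and the later response. Many of these genes are long, with alternative promoters that give different protein isoforms. H2.0 itself is known from the visceral musculature of the embryo.

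Sequence is shown for the summit of highest signal in 6 of the genes, namely Eip75B, Eip74EF, Eip78C, br, Hr4 and ftz-f1, and also for the one of lowest signal in those with more than 4 summits, to let the strongest and weakest sites be compared. No window is shown for EcR, usp and Hr3, although Hr3 held the highest summit of the 37, and Hr39 held no summit. Each window is 121 bases, 5′ to 3′ on the strand of the gene, from the RefSeq Release 6 assembly (dm6), and the capitals mark the 11 bases centred on the summit. The Eip75B summit of highest signal lay 3 bp inside the transcript Eip75B-RC, so its window is the sequence that ends just upstream of that start, with the last 11 bases in capitals. The Eip75B windows are chr3L:17999822-17999942 and chr3L:18030197-18030317 (minus strand). That of Eip74EF is chr3L:17566970-17567090 (minus), that of Eip78C chr3L:21251456-21251576 (plus) and that of br chrX:1618826-1618946 (plus). The Hr4 windows are chrX:1963861-1963981 and chrX:1943876-1943996 (plus), and those of ftz-f1 are chr3L:18784715-18784835 and chr3L:18791579-18791699 (minus).
Eip75B, highest: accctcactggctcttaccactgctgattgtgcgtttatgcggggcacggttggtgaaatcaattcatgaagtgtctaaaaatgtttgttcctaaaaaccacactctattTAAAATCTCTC
Eip75B, lowest: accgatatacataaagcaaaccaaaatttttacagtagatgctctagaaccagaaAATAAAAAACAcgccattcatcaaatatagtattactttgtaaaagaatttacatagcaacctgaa
Eip74EF, highest: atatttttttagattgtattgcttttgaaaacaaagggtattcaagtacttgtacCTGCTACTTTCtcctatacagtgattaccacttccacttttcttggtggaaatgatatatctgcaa
Eip78C, highest: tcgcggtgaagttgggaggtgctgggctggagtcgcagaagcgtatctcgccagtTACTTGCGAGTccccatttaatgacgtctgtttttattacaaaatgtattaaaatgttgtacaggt
br, highest: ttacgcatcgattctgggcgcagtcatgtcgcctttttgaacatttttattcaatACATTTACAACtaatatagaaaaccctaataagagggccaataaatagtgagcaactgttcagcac
Hr4, highest: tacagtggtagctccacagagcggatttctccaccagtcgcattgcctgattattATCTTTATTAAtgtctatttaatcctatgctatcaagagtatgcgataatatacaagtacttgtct
Hr4, lowest: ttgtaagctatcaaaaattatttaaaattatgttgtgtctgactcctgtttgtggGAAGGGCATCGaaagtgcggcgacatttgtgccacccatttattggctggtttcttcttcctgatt
ftz-f1, highest: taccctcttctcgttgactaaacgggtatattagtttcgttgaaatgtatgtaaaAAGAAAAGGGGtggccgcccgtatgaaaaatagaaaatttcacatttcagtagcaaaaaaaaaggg
ftz-f1, lowest: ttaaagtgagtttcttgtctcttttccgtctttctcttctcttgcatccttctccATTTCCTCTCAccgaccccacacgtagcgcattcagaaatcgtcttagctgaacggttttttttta
The window of highest signal in Eip78C held 45.5% G or C and was the most GC-rich of the 9, and the lowest of Eip75B held 28.9% and was the least. The strongest Hr4 site and the strongest br site each held 37.2%. None of the 9 windows held the nuclear receptor core site AGGTCA.

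In the pooled list, 9 of the 10 genes held at least 1 summit, and Hr39 held none. Over all protein-coding genes the share was 28.1%, but the 10 genes are long, with a median span of 55.7 kb against 2.16 kb. Read within classes of span, 6 of 6 members over 50 kb were covered, against 63.3% of all genes of that class. Of the 3 members of 20 to 50 kb, Eip78C and Hr3 were covered and Hr39 was not, against 56.7% of all genes. The 1 member under 5 kb, usp, was covered, against 21.8%. Replicate 1 covered 8 of the 10 genes, all but br and Hr39, against 20.9% of all genes. Replicate 2 covered 7, all but usp, Eip78C and Hr39, against 22.6%. The conservative list covered 9, against 27.5%. A pooled summit that recurred within 200 bp in both replicate lists was present in 6 of the 10 genes, namely EcR, Eip75B, Eip74EF, Hr3, Hr4 and ftz-f1, against 17.3% of all genes. For the replicate and conservative lists and the recurring summits, shares were not counted by class of span. Those comparisons are therefore not matched for gene length.

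The 10 widened spans came to 581 kb and held 0.0637 summits per kb, or 1 summit in 15.7 kb. The whole of the arms held 0.0332 per kb, or 1 in 30.1 kb. In replicate 1 the densities were 0.0430 per kb in the 10 genes and 0.0222 over the arms, and in replicate 2 they were 0.0327 and 0.0226. Members over 50 kb held 0.0654 summits per kb, against 0.0212 for all genes of that class, and members of 20 to 50 kb held 0.0492 against 0.0384. The density was uneven within the family. Among the members over 50 kb it was 0.0109 per kb in br, 0.0240 in EcR, 0.0479 in Eip74EF and 0.0518 in Eip75B. It was 0.152 in ftz-f1 and 0.162 in Hr4. Hr4 (11 summits), ftz-f1 (8) and Eip75B (6) together held 25 of the 37 (67.6%), and without Hr4 the density was 0.0507 per kb. The 3 genes on X, namely usp, br and Hr4, held 13 of the 37 summits, 11 of them in Hr4. X as a whole held 887 of the 4565 pooled summits, at 0.0377 per kb. Ranked peaks, which include those below the threshold, numbered 1.12 per kb in the 10 genes and 0.979 per kb over the arms. Of the 649 ranked peaks in the 10 genes, 5.70% were in the thresholded list, against 3.39% over the arms.

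**Figure D1:**
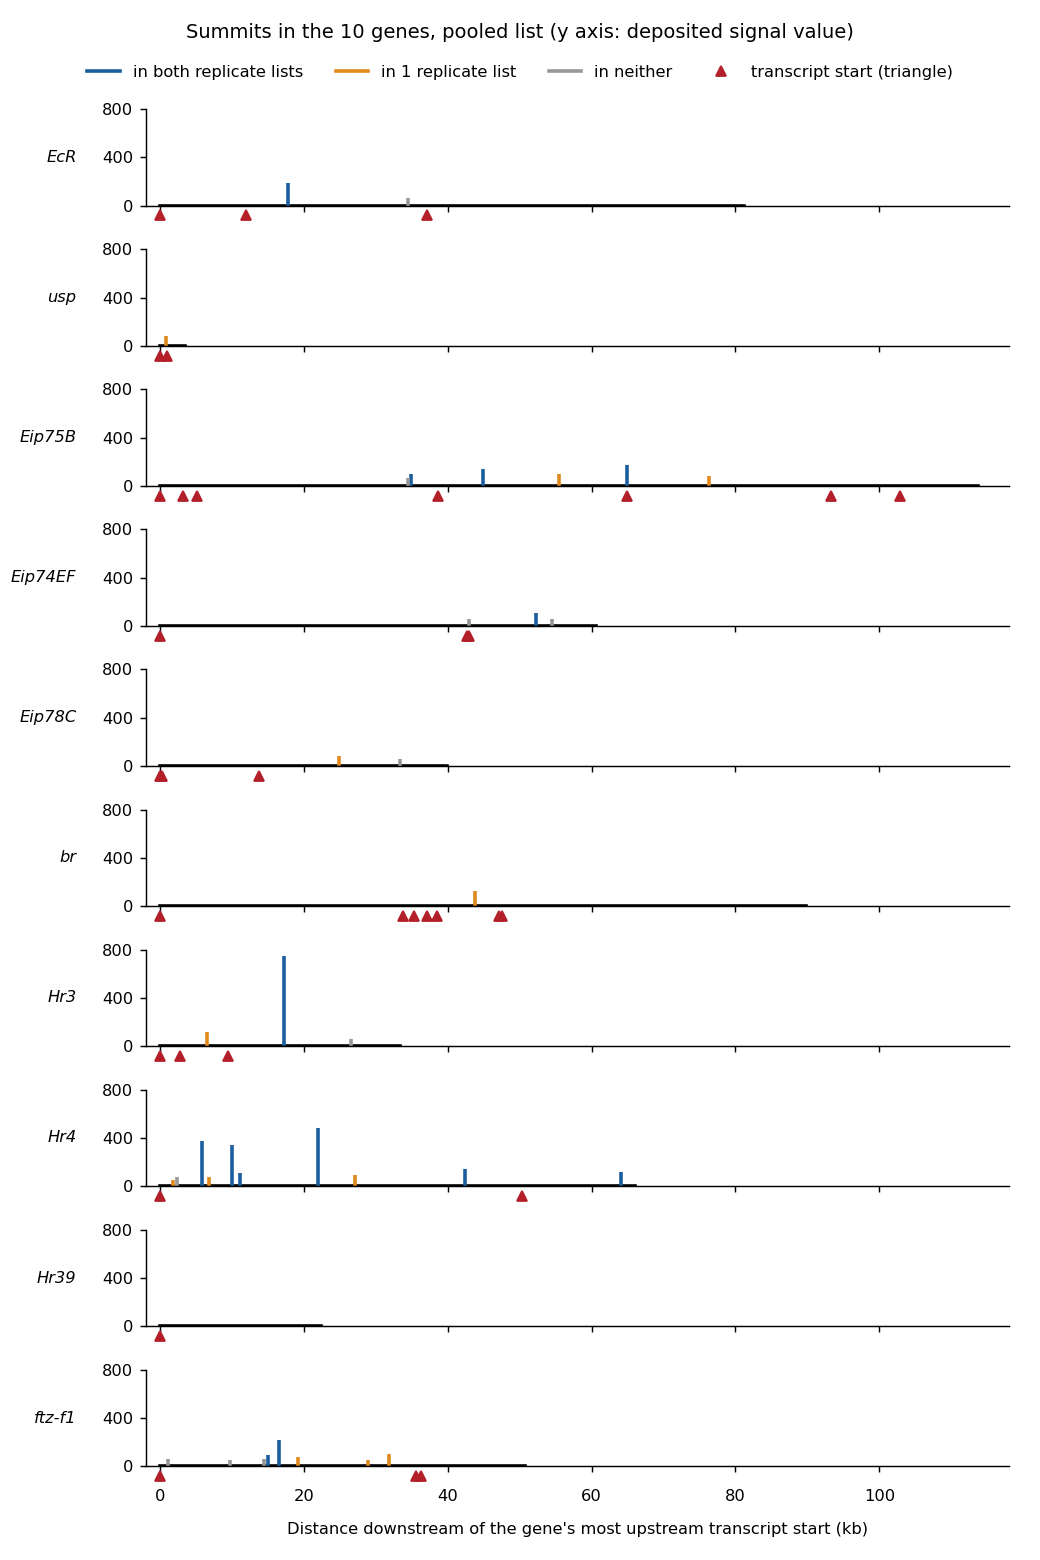
Position of each pooled summit along the 10 genes, in kb downstream of the most upstream annotated transcript start, with bar height showing the deposited signal value. Bar colour gives whether a summit within 200 bp was in both replicate lists, in 1 or in neither, the black line is the gene span and triangles are transcript starts. Hr4 carries 11 summits, from 1797 bp to 64077 bp downstream of its first start and densest toward that start, br carries 1 and Hr39 none.

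**Figure D2:**
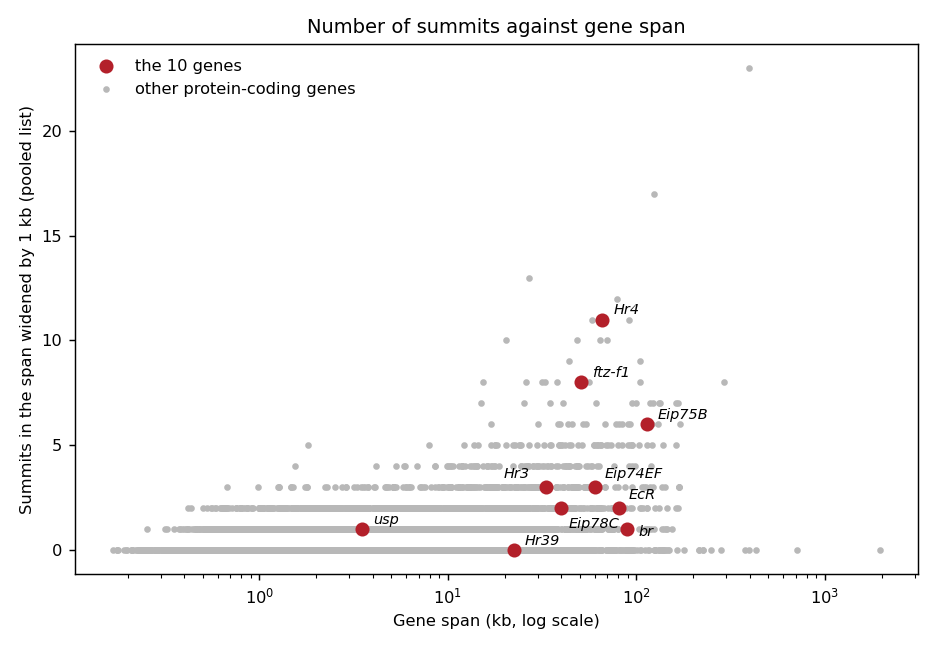
Number of pooled summits in the widened span of every protein-coding gene against gene span on a log axis, with the 10 genes in red. Hr4 with 11 summits and ftz-f1 with 8 lie near the top for their span. With a span of 89.7 kb, br has 1, which is the median of all genes over 50 kb.

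Of the genes of the receptor itself, EcR held 2 summits (0.0240 per kb) and usp held 1 (0.181 per kb). As many or more were held by 45.7% of genes over 50 kb for EcR and by 21.8% of genes under 5 kb for usp. EcR (FBgn0000546; 2R, 6087873 to 6169087, minus strand), which encodes the hormone receptor, has 6 annotated transcripts from 3 starts. Its stronger summit, at 6151302, had a pooled signal value of 193, with 84.8 in replicate 1 and 95.4 in replicate 2, and recurred in both replicate lists. It lay in an intron 5827 bp downstream of the start of EcR-RD and EcR-RE, and the nearest start of any gene was that of tRNA:Asn-GTT-1-1, at 1374 bp. The weaker one, at 6134657, had 65.3, with 38.5 in replicate 1 and 26.5 in replicate 2, and was in neither replicate list. It lay 2735 bp upstream of the start of EcR-RB, EcR-RC and EcR-RG, and the start of CG14589 was slightly closer, at 2646 bp. No summit was nearest to the start of EcR-RA.

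The gene of the heterodimer partner, usp (FBgn0003964; X, 2038798 to 2042311, minus strand), held 1 summit, at 2041501. It lay in a 5′ UTR, 189 bp upstream of the start of usp-RA, and also within the annotated span of Actn, the gene of alpha-actinin, which shares the upstream start of usp. The pooled signal value was 85.6. Replicate 1 had 62.8 there and replicate 2 had 25.8, and only the list of replicate 1 held it.

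Among the early genes, Eip75B was the richest. Eip75B (FBgn0000568; 3L, 17950953 to 18064696, minus strand) encodes the nuclear receptor E75, which binds haem, and has 7 transcripts, each with a start of its own. The highest of its 6 summits, at 17999818, had a pooled signal value of 174, with 115.5 in replicate 1 and 64.1 in replicate 2. It was 3 bp downstream of the start of Eip75B-RC, whose upstream sequence is shown above. The next, at 18019805, had 141, with 49.4 in replicate 1 and 94.6 in replicate 2, and lay 6227 bp downstream of the start of Eip75B-RG. Both were in both replicate lists, as was the summit at 18029781 (97.1, with 44.4 and 47.8). The order of the highest pair differed between the replicates. The summits at 18009182 (95.01) and 17988351 (79.3) were in the list of replicate 1 alone, and the one at 18030257 (67.2), whose window is shown above, was in neither. All 6 summits were nearest to the starts of Eip75B-RC or Eip75B-RG among the starts of the gene, 3 to each. The starts of Eip75B-RF, Eip75B-RE and Eip75B-RB, at the upstream end of the gene, and those of Eip75B-RA and Eip75B-RD were nearest to none. The nearest start of any gene was that of Eip75B for 5 of the 6 and that of lncRNA:CR45921 for the summit at 17988351.

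Eip74EF (FBgn0000567; 3L, 17558672 to 17619325, minus strand), an ETS-domain transcription factor gene, held 3 summits. The highest, at 17567030, had a pooled signal value of 107, with 54.8 in replicate 1 and 59.1 in replicate 2, and was the only one of the 3 in both replicate lists. It was in an intron 9290 bp downstream of the start of Eip74EF-RD, and the start of the neighbouring gene CycT was about as far away, at 9242 bp. A summit at 17576321, of 60.5, stood 1 bp upstream of the start of Eip74EF-RD and 305 bp downstream of that of Eip74EF-RB. Replicate 1 had 29.0 there and replicate 2 had 32.4, and neither replicate list held it. The third, at 17564811 (56.4), was the only one of the 37 in a coding exon, and neither replicate list nor the conservative list held it. All 3 lay 43 kb or more from the upstream start shared by Eip74EF-RA, Eip74EF-RC and Eip74EF-RE.

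Eip78C (FBgn0004865; 3L, 21226609 to 21266503, plus strand) encodes a nuclear receptor related to E75. Its 2 summits were intronic, at 21251516 (80.1, with 40.9 in replicate 1 and 34.7 in replicate 2) and 21259993 (56.3, with 23.7 and 31.1). The first was in the list of replicate 1 alone and the second in neither. Their scores of 932 and 848 were below the upper limit of 1000, and neither remained when only peaks at that limit were counted. They lay 11169 bp and 19646 bp downstream of the start of Eip78C-RB, and for both the nearest start of any gene was that of CG43218.

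br (FBgn0283451; X, 1575132 to 1664869, plus strand), the Broad gene of BTB zinc finger factors that specify the pupal stage, has 16 transcripts from 7 starts and held 1 summit, at 1618886. The pooled signal value was 123, with 55.5 in replicate 1 and 63.7 in replicate 2, and the list of replicate 2 alone held it. The summit lay 3422 bp upstream of the start of br-RS. It also lay within Mur2B, a gene of the opposite strand whose span holds all of br, 731 bp from its nearest start. Of the 10 genes, br had the most ranked peaks, 119, of which 0.840% were in the thresholded list, against 12.2% of the 90 ranked peaks of Hr4.

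Among the orphan receptors that follow the early genes, Hr3 (FBgn0000448; 2R, 10203995 to 10237348, minus strand), the fly ROR, held the highest summit of the family. At 10220074 the pooled signal value was 746, with 392 in replicate 1 and 356 in replicate 2, above 98.7% of the pooled list. The summit was intronic, 7883 bp downstream of the start of Hr3-RA, Hr3-RF and Hr3-RH, and within the spans of CG12912 and CG46321, genes of the same strand annotated from starts that Hr3 also uses. The other summits were far lower. That at 10230868 had 119, with 89.3 in replicate 1 and 27.3 in replicate 2, and was in the list of replicate 1 alone. That at 10210801 had 59.4 (31.5 and 38.6), was in neither list and lay 546 bp from the start of lncRNA:CR46322.

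Hr4 (FBgn0264562; X, 1941940 to 2007956, plus strand) encodes a receptor of the same tier that acts in the prothoracic gland and in the timing of ftz-f1. It held 11 summits, 0.162 per kb, which was the fifth highest number of any protein-coding gene, shared with CG32264 and shn. Of the genes over 50 kb, 1.92% had as many or more. The rank and this share take the 11 as separate sites, although a pair of them, given below, may be 1 site. The conservative list had 9 summits in Hr4, and each replicate's list had 8. The highest summit, at 1963921, had a pooled signal value of 480.0, with 199.6 in replicate 1 and 285 in replicate 2. It was followed by 1947748 (377, with 164 and 211) and 1951887 (339.6, with 164 and 177). These 3 were in both replicate lists, were higher in replicate 2 and lay in an intron 21981 bp, 5808 bp and 9947 bp downstream of the first start of the gene. Summits at 1984340 (140.0), 2006017 (117, in the 3′ UTR) and 1953112 (113) were also in both lists.

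The remaining 5 summits of Hr4 were weaker. Those at 1948743 (77.5) and 1969094 (95.2) were in the list of replicate 1 alone and replicate 2 alone, and 1944330 (75.4) was in neither. The pair at 1943737 (54.5) and 1943936 (20.4) stood 199 bp apart in overlapping peaks and was matched by the same replicate 1 peak of 36.7, so it may be counted as 1 site. The replicate 2 values were 19.5 and 8.32, and the weaker of the pair was the lowest of the 37, with a q-value of 0.912. Neither of the pair was in the conservative list. The first start, shared by 7 of the 9 transcripts, was the nearest start of the gene for 8 of the 11 summits, and that of Hr4-RE and Hr4-RF for 3. None was within 1 kb of either. The nearest start of any gene was that of Hr4 for 5 summits, of CR46447, a pseudogene inside the span of Hr4, for 5 and of PIG-K for 1.

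Hr39 (FBgn0261239; 2L, 21237250 to 21259675, plus strand), a receptor related to Ftz-f1 that can bind the same DNA sites, had no summit in any thresholded list. Its highest ranked peak, at 21245475, had a pooled signal value of 54.5 and a score of 600 (IDR, the irreproducible discovery rate, of 0.0359), against the minimum score of 830 (IDR of 0.01). The highest ranked value was 29.8 in replicate 1 (IDR of 0.493) and 26.7 in replicate 2 (IDR of 0.772). Absence from the list is a statement about that threshold, since 19 ranked peaks lay in the gene.

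ftz-f1 (FBgn0001078; 3L, 18750607 to 18801309, minus strand), whose product is the competence factor between the hormone pulses of late larva and pupa and a partner of Ftz in the early embryo, held 8 summits, 0.152 per kb. Of the genes over 50 kb, 4.15% had as many or more. The highest, at 18784775, had a pooled signal value of 221, with 80.2 in replicate 1 and 146 in replicate 2. It and the summit at 18786278 (92.7, with 46.8 and 42.8) were the only ones in both replicate lists. The summits at 18769510 (100.8) and 18782141 (78.3) were in the list of replicate 1 alone and 18772383 (57.1, with 19.0 and 49.8) in that of replicate 2 alone. The other 3, at 18786884 (63.5), 18800220 (60.9) and 18791639 (51.2), were in neither. Of the 8, 5 were nearest to the start of ftz-f1-RB, at the upstream end of the gene, and 3 to that of ftz-f1-RC and ftz-f1-RD. The closest lay 1089 bp downstream of the ftz-f1-RB start, in a 5′ UTR. The summit at 18769510 was the only one outside the annotated span of lncRNA:CR45939, an RNA gene of the same strand.

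Few of the summits in these genes were at promoters. Of the 37, 3 (8.11%, 95% exact binomial interval 1.70 to 21.9) were within 500 bp of a start of their gene, and those 3 were at usp-RA, Eip75B-RC and Eip74EF-RD. Of all pooled summits, 46.02% were within 500 bp of a start of some gene. Among summits in the spans of other protein-coding genes, 50.3% were within 500 bp of a start of the gene, and the median distance was 491 bp. The median was 7883 bp in the 10 genes. Long genes have most of their sequence far from a start, and within the class over 50 kb the shares were 2 of 31 summits in the members (6.45%, exact interval 0.791 to 21.4) and 90 of 625 in the other genes (14.4%). The median distances in that class were 6803 bp in the members and 7102 bp in the other genes. Of the 34 distinct starts of the 10 genes, from 63 transcripts, 4 had a summit within 500 bp. By annotation, 31 summits were intronic, 4 in 5′ UTRs, 1 in a coding exon and 1 in a 3′ UTR. A start of the same gene was the nearest of any gene for 22 of the 37, and 12 lay inside another annotated gene. The intervals cover counting error only and treat summits as independent.

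**Figure D3:**
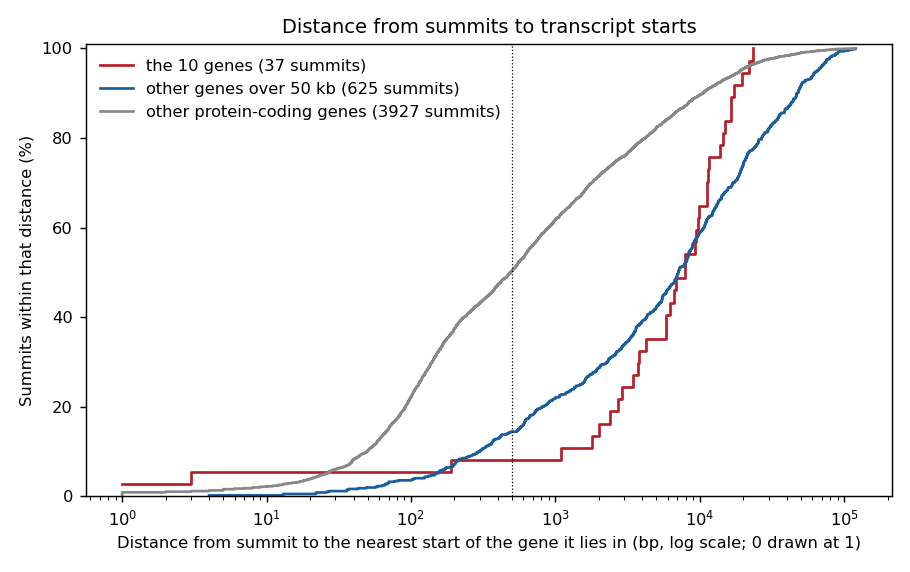
Cumulative share of summits by distance to the nearest start of the gene they lie in, on a log axis, for the 10 genes, other genes over 50 kb and other protein-coding genes. The dotted line marks 500 bp, where the curves stand at 8.11%, 14.4% and 50.3%.

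The signal values of the 37 summits were not high as a set. Their median was 92.7 (quartiles 63.5 and 123, range 20.4 to 746), against 94.6 (68.9 and 155) over all pooled summits. Of the 37, 4 were above 90% of the pooled list, all in Hr3 and Hr4, and 2 were above 95%. By the deposited q-value, 25 of the 37 (67.6%) were below 0.05, against 69.4% of all summits. A summit within 200 bp was present in both replicate lists for 14 of the 37 (37.8%, exact interval 22.5 to 55.2), in 1 list for 13 (35.1%) and in neither for 10 (27.0%). Over all pooled summits the shares were 49.2%, 29.8% and 21.0%, and that of both lists lies within the interval. For 31 of the 37 the conservative list also held a peak, its summit at most 200 bp away.

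In the ranked lists, all 37 summits had a peak within 200 bp in both replicates. Replicate 2 had the higher value at 19 of the 37 (51.4%), against 41.8% of the 4465 pooled summits with both values. The SD of the log2 ratio of replicate 2 to replicate 1 was 0.74 over the 37 summits and 0.64 over the 4465. The Hr4 pair 199 bp apart shares 1 replicate 1 peak, and over the other 35 summits the SD was 0.66, where the ratio farthest from 0 was -1.71, at the Hr3 summit of 119. The strongest summits of Hr3 and EcR had ratios of -0.14 and 0.17 on the log2 scale, while those of Eip75B and ftz-f1 had -0.85 and 0.86. These values are as deposited and are not scaled between the replicates.

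**Figure D4:**
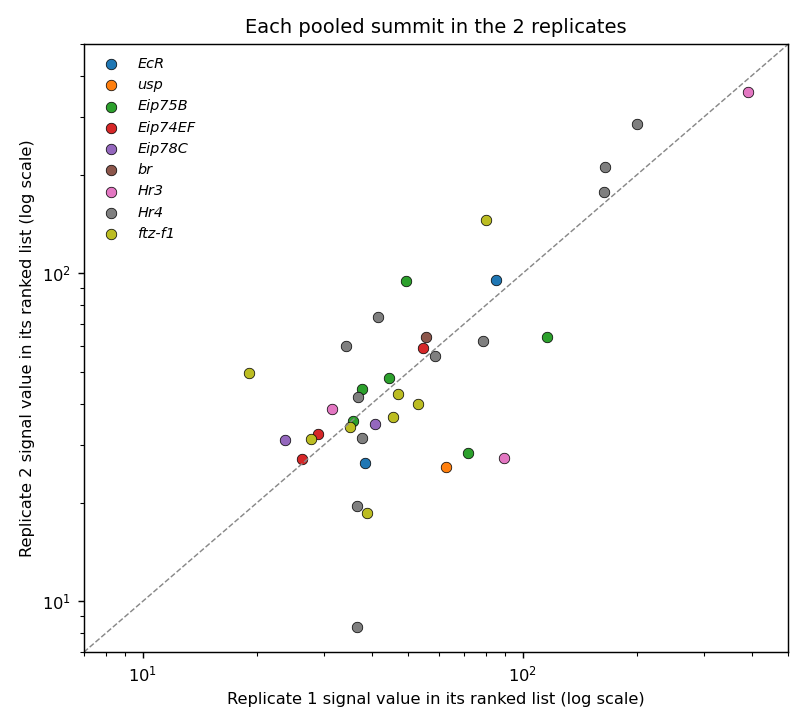
Ranked-list signal value of each of the 37 summits in replicate 2 against replicate 1, both on log axes, coloured by gene, with the line of equal values dashed. The Hr3 summit at 392 and 356 and the 3 strongest Hr4 summits stand at the upper right, and the scatter is widest below 100.

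Sequence within 150 bp of the summits was searched on both strands. The core site AGGTCA, to which many nuclear receptors bind, occurred at 2 of the 37 summits (5.41%), against 6.48% of all pooled summits. The 2 were those at 17567030 in Eip74EF and 18782141 in ftz-f1. The extended core site TCAAGGTCA, of the kind bound by Ftz-f1 and Hr39, occurred at none of the 37 and at 0.0438% of all. The palindrome of the core site with 1 base between and the ecdysone response element of the hsp27 gene class occurred at none of the 4565. The homeodomain core TAATTA was at 5 of the 37 (13.5%), in usp, Hr3, Hr4 and ftz-f1 (at 2 of its summits), against 21.2% of all. Within 50 bp of the summit the order of the shares turned round, with 4 of the 37 (10.8%) against 9.24% of all. The NK class site CAAGTG was also at 5 (13.5%), 3 of them in Eip75B, against 18.6%, and within 50 bp it too turned round, with 4 (10.8%) against 5.85%. GAGAG, the core of GAGA factor sites, was at 15 (40.5%), against 35.4%, and within 50 bp at 6 (16.2%), against 9.40%. Overlapping matches at ftz-f1's most upstream summit numbered 7. The DREF site TATCGATA, known from promoters, was at none of the 37 and at 4.45% of all, and CAGGTAG, the Zelda site, was at none and at 1.29%. The Mef2 site was at none and at 0.263%. TAGCTA, which earlier work on these data had picked out, was at 3 (8.11%), against 7.67%, and within 50 bp at none, against 3.04%. The 3 include both summits of the Hr4 pair, at 1943737 and 1943936, that may be 1 site. The median GC content within 150 bp of the summit was 40.2% in the 10 genes and 37.9% over all pooled summits, and within 50 bp it was 39.6% and 33.7%. At Hr3's highest summit it was 19.8% within 50 bp. No match says only that these letters are not in the window.

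Other genes of the hormone pathway were counted in 4 lists, 54 genes in all that the annotation names. Of these, 21 were covered by a pooled summit (38.9%), against 28.1% of all protein-coding genes. Without widening the share was 22.2%, against 12% of all genes, and with 5 kb it was 61.1%, against 47.8%. These genes are longer than most, with a median span of 7.11 kb, and within classes of span the shares lay on both sides of the general one. Under 5 kb, 6 of 25 were covered (24.0%, against 21.8% of all genes), from 5 to 20 kb 9 of 16 (56.2%, against 42.3%), from 20 to 50 kb 2 of 8 (25%, against 56.7%) and over 50 kb 4 of 5 (80.0%, against 63.3%). Each number after a symbol is the pooled signal value of the strongest summit counted. Of 12 genes of ecdysteroid synthesis and turnover, 2 were counted (16.7%), against 28.1% of all protein-coding genes. The 2 were shd (51.9), which encodes the last hydroxylase of the pathway, and Start1 (57.1), a gene of sterol transport. Both summits were closest to other genes, CG9628 and SIFa, and neither replicate list covered any of the 12. Of 11 genes of receptor cofactors and hormone signalling, with a median span of 13.9 kb, 9 were counted (81.8%). The share was 28.1% over all protein-coding genes and 42.3% over those of 5 to 20 kb. The strongest of the 9 were ImpL2 (446), a secreted insulin-binding protein gene, gce (348), a juvenile hormone receptor gene, Hsp83 (271), the Hsp90 chaperone gene, and tai (163), the EcR coactivator gene. The summit counted for tai lay 60 bp from a start of CG9586, and that counted for gce 215 bp from one of asRNA:CR44429. That of tai was also within 500 bp of a start of tai itself. Met, the paralogue of gce, and Kr-h1 held none.

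Of 19 other response genes, 4 were counted (21.1%), against 28.1% of all protein-coding genes. The median span of the 19 was 2.15 kb, and without widening 2 of them were counted, against 12% of all genes. E23 (476) encodes an ABC transporter and its highest summit lay 232 bp upstream of a start. Eip63E (401) encodes a cyclin-dependent kinase, hid (139.5) is a cell death gene and Ddc (55.1) encodes dopa decarboxylase. The salivary glue genes Sgs3 and Sgs4 and the genes Edg78E, Edg84A and Edg91 held none. Of 13 other nuclear receptor genes, 6 were counted (46.2%), against 28.1% of all protein-coding genes and 42.3% of those of 5 to 20 kb. Among the 6 were Hr96 (267), Hr51 (184), ERR (171) and eg (100.03). The median span of the 13 was 8.06 kb. Without widening 2 of them were counted, Hr78 and Hnf4, against 12% of all genes. The summits counted for Hr96, Hr51 and ERR were nearest to starts of EMC6, unc-5 and Atg18a. Those of Hr96 and ERR were also within 500 bp of a start of their own gene, and that of Hr51 was not. Hr38, Hr83, svp, tll, dsf, kni and knrl held none. The summits counted for Hr96, ERR, Hr51, of the tailless group, and eg, of the knirps group, lay in the added 1 kb and not in the annotated spans.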

How the data were processed

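H2.0-eGFP ChIP-seq peak lists of 2 biological replicates of whole embryos (dm6, per the labels) were read as deposited. Neither aligner nor peak caller is named (not given in the sources used here), and no reads were used, so depth is unknown. The authors deposited a signal value per peak, an enrichment signal not scaled between lists, an irreproducible discovery rate (IDR) score of 830 to 1000 in thresholded lists, and −log10 of a q-value and of the global IDR, which were back-transformed. The labels name replicates but no pairing. The pooled list was the main one and the conservative and per-replicate lists stood beside it.

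Summits were placed on Ensembl release 115 gene spans widened by 1 kb. Transcript starts within 100 bp were merged, summits within 200 bp were called shared, and a start distance of 500 bp counted as a promoter. Windows came from the RefSeq Release 6 sequence, whose arm lengths match. Counting was tested on simulated data. Python 3.11.15, pandas 2.3.3 and scipy 1.17.1 were used. The genes, the lists and the motifs were chosen with earlier results of these data known, so counts stand beside those of all genes and no test was made. Named genes were the 10, up to 4 of each list by signal, and the nearest gene of each summit. 6 list names were not matched and were left out.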

Additional observations from a re-analysis of the deposited data

How the results depend on the processing

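No paired analysis was possible because there was no second group. The number of the 10 genes with a summit was 6 to 9 under every alternative tried, against 9. The density of 0.0637 summits per kb was 0.0327 to 0.0430 with either replicate's own list, 0.0310 with only the upper part of the pooled list by signal and 0.0378 when a summit had to be nearest to a start of its gene. The 3 summits at own starts became 1 to 2 in the replicates' lists and 1 in the upper part by signal. The median signal value of 92.7 was 54.8 to 63.7 in the replicates' lists, whose scale differs, 131 in the upper part by signal and 113 at a q-value below 0.05. The cut by signal lowers the density and raises the median by construction. The density over the arms was not counted under that cut. The share in both replicate lists was 72.2% in the upper part by signal and 56.0% at a q-value below 0.05, and has no value without a replicate. AGGTCA was at 0 summits within 50 bp, against 2 within 150 bp. The share in the 10 genes minus that of all summits turned round within 50 bp for TAATTA (1.57 percentage points, against -7.65 within 150 bp), CAAGTG (4.96, against -5.08) and TAGCTA (-3.04, against 0.44). These shares rest on 4, 4 and 0 of the 37 summits within 50 bp and on 5, 5 and 3 within 150 bp. Whether the turns go beyond counting error was not tested. The summits with TAGCTA within 150 bp include both of the Hr4 pair that may be 1 site. The pathway lists had 12 genes without widening (22.2%, against 12% of all protein-coding genes) and 33 with 5 kb (61.1%, against 47.8%), with 21 at 1 kb. Of 100 counts per gene under the alternatives, 72 were within 1.5 times of those reported and 28 were not. Without reads, a gene with no summit is one with none past the threshold.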

Other observations

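A further 7 summits in the 10 genes were in other thresholded lists and not within 200 bp of a pooled one. One site in an Eip75B intron was in both replicate lists, at 18003425 in replicate 1 (signal value 18.7) and at 18003294 in replicate 2 (36.6), while the ranked pooled peak there had 52.8 and an IDR of 0.652. Replicate 1 alone had a summit in an intron of Eip74EF, at 17611556 (44.1), and replicate 2 alone had one in Hr4, at 1995968 (35.8). The conservative list alone had summits at 18015300 in Eip75B (50.7) and at 18757364 (51.6) and 18763972 (60.4) in ftz-f1, the last of them in a coding exon. None of the 141 ranked peaks that passed the score and were left out of the pooled thresholded list lay in the 10 genes.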
